A study of Sus scrofa with 25 samples.

Results

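The genes described here bring long-chain fatty acids into muscle fibres and break them down in mitochondria. The set was a list of 33 gene symbols covering fatty acid uptake, activation, carnitine-dependent transport and beta-oxidation. Symbols were matched to Ensembl pig gene identifiers through an Ensembl table of gene names, and a gene was kept where it had a count in at least 13 of 25 libraries. Of the 33 symbols, 31 were matched to a counted gene and 30 were kept, out of 25879 genes analysed. CD36, the fatty acid translocase, and ECI1, an isomerase for unsaturated fatty acids, had no matched gene and are not analysed here. UCP3, a mitochondrial uncoupling protein of muscle, had counts in 4 of 25 libraries, with 36 counts in all and at most 19 counts (3.16 CPM, counts scaled to the library total) in D5000 replicate 6.

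Muscle RNA was measured in 25 pigs, with 1 library per pig, using Lexogen QuantSeq 3' FWD libraries. Such a library takes its reads near the 3' end of a transcript, so CPM, scaled to all counts on genes, is not tied to transcript length. Levels of different genes are compared below as transcript ends. Reads outside annotated genes (16.3% to 38.1%) or mapped to several places (12.5% to 38.7%) were counted on no gene. How fully each gene's 3' end is annotated was not tested. A difference in CPM between genes therefore need not be a difference in transcript number. The animals came from Polish Large White sows crossed with Landrace boars, and the feeds, equal in protein and energy, were given for 90 days from day 85 of life, with litters spread over the diets. The control diet (8 pigs) held 0 IU/kg of vitamin D3, D5000 (8 pigs) held 5000 IU/kg and D10000 (9 pigs) held 10000 IU/kg. Which muscle was taken, and the sex and litter of an animal, are not given in the sources used here. Replicates are named by the animal numbers of the labels.

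Lipoprotein lipase frees fatty acids from blood triglycerides at the capillary wall, and transporters and binding proteins carry them into the fibre. Acyl-CoA synthetases couple them to coenzyme A, the carnitine shuttle moves the long-chain acyl groups across the inner mitochondrial membrane, and each turn of beta-oxidation dehydrogenates, hydrates, dehydrogenates again and cleaves off acetyl-CoA. In skeletal muscle, slow oxidative fibres depend on this route more than fast glycolytic fibres do.

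Depth ran from 3310507 to 15177976 gene counts per library, and 24.9% to 70.6% of the reads in a file were assigned to genes. The skeletal actin gene ACTA1 (10029 to 213895 CPM) and the muscle creatine kinase gene CKM (1176 to 20532 CPM) were present in all 25 libraries. Liver transcripts were also present in all of them, with the albumin gene ALB at 934 to 18158 CPM. D10000 replicate 27 stood apart, with 19871 CPM summed over 10 adipocyte markers, while the next highest library had 880.4 CPM. In that library ADIPOQ, which encodes the fat-cell hormone adiponectin, reached 1234 CPM against at most 44.1 CPM elsewhere, and ACTA1 was at its lowest. Another 3 libraries had under 40% of their reads assigned to genes, namely D5000 replicate 18 (24.9%), D10000 replicate 2 (28.4%) and D10000 replicate 7 (38.2%). In bulk tissue, fewer cells of a type and less RNA per cell cannot be told apart.

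Together the 30 genes held 0.253% ± 0.201 of the gene counts (SD, n = 25). Their summed level had a lowest, median and highest value of 1445, 2126 and 3316 CPM in control, 1205, 2092 and 3062 CPM in D5000, and 1551, 1957 and 11820.2 CPM in D10000. The highest value came from D10000 replicate 27, and the other 24 libraries overlapped across diets. The spread between libraries of a diet was below that of most genes for many of the members: their median biological coefficient of variation (BCV, the relative spread beyond counting error) was 0.453, and 22 of 30 lay under the median of 0.585 over all 10992 genes tested. This comparison does not allow for expression level. The BCV that edgeR fitted as a trend over level was 0.483 for ACSL4, 0.509 for ECHS1 and 0.919 for UCP2. ACSL4 had the smallest BCV (0.350) and LPL the largest (1.21).

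**Figure D1:**
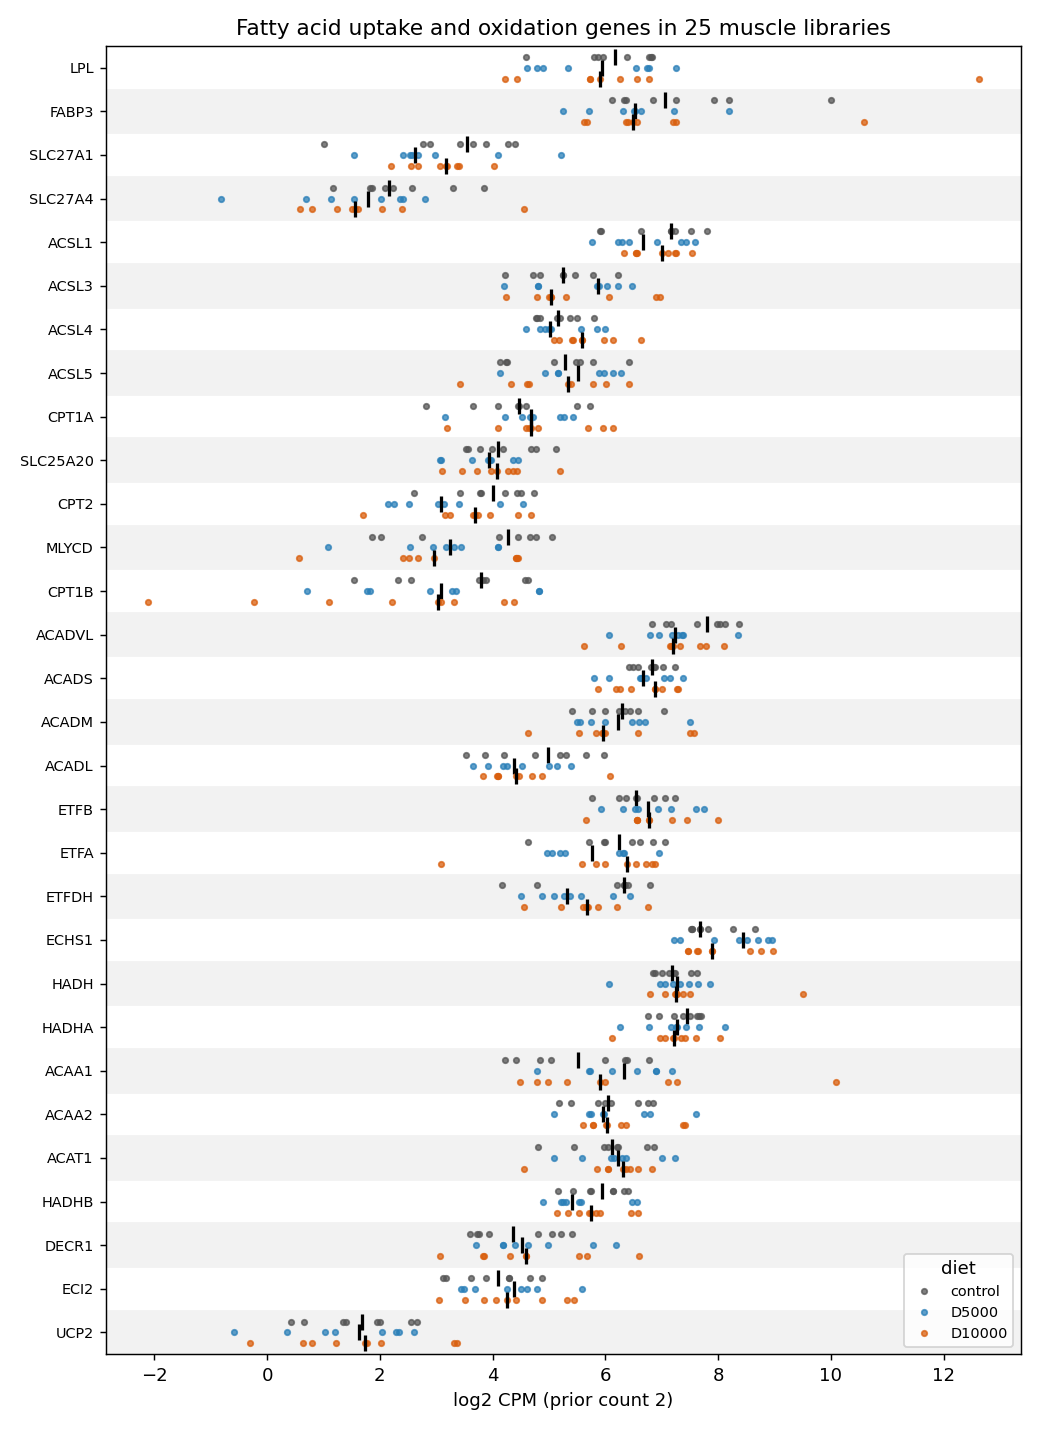
Levels of the 30 genes in all 25 libraries, as log2 CPM with a prior count of 2 on the horizontal axis, genes down the page by role, 1 point per library coloured by diet and a black tick at each diet's median. The diets overlap for every gene, and the far right point of LPL is D10000 replicate 27 at 6328 CPM.

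Levels of single genes are given below as the lowest, the median and the highest library of a diet. Among the genes of uptake and carriage, LPL (ENSSSCG00000040631), the lipoprotein lipase gene, had 23.8, 72.9 and 113 CPM in control, 24.3, 66.9 and 153 CPM in D5000, and 18.3, 60.0 and 6328 CPM in D10000. Without D10000 replicate 27 the 24 other libraries spanned 18.3 to 153 CPM, with the diets overlapping. FABP3 (ENSSSCG00000036883), the heart-type fatty acid-binding protein that ferries fatty acids through the cytosol, stood at 69.2, 134 and 1029 CPM in control, 38, 91.8 and 291 CPM in D5000, and 49.2, 89.7 and 1531 CPM in D10000. Its high values lay in control replicate 16 and D10000 replicate 27, and the remaining libraries reached at most 292 CPM. The fatty acid transport proteins were low, SLC27A1 at 1.78 to 37 CPM and SLC27A4 at 0.333 to 23.2 CPM over the 25 libraries.

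Of the long-chain acyl-CoA synthetases, ACSL1 (ENSSSCG00000015784), the main form of muscle and fat, had 59.5, 144 and 224 CPM in control, 54.0, 103 and 193 CPM in D5000, and 80.2, 128 and 185 CPM in D10000. ACSL3 (ENSSSCG00000016223), a form found on the endoplasmic reticulum and lipid droplets, had 18.4, 37.8 and 74.7 CPM in control, 18.2, 58.4 and 88.7 CPM in D5000, and 18.6, 32.6 and 125 CPM in D10000. ACSL4 (ENSSSCG00000012583), which prefers arachidonic acid, had 26.9, 35.7 and 55.6 CPM in control, 24.0, 32.2 and 63.3 CPM in D5000, and 33.6, 48.0 and 99.5 CPM in D10000. All 3 overlapped between diets, the highest ACSL3 and ACSL4 values both being those of D10000 replicate 7. ACSL5, a mitochondrial and reticular form, spanned 10.5 to 85.6 CPM.

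In the carnitine shuttle, CPT1A (ENSSSCG00000012880), the liver form of the outer-membrane carnitine palmitoyltransferase, had 6.83, 21.8 and 52.6 CPM in control, 8.69, 25.5 and 42.7 CPM in D5000, and 8.94, 25.3 and 70.1 CPM in D10000. CPT1B (ENSSSCG00000022364), the muscle form, spanned 0 to 28.2 CPM, and its 0 counts in D10000 replicate 2 allow up to 0.906 CPM (3 counts, counting error only). CPT1A exceeded CPT1B in 22 of 25 libraries, with medians of 24.8 and 8.24 CPM. SLC25A20 (ENSSSCG00000011366), the carnitine-acylcarnitine carrier, had 11.3, 16.8 and 34.8 CPM in control, 8.11, 15.0 and 21.6 CPM in D5000, and 8.36, 16.8 and 36.6 CPM in D10000. Neither CPT1A nor SLC25A20 separated the diets. CPT2 (ENSSSCG00000003851), which hands the acyl group back to coenzyme A inside the mitochondrion, had 5.88, 16.0 and 26.5 CPM in control, 4.16, 8.25 and 22.9 CPM in D5000, and 3.02, 12.7 and 25.4 CPM in D10000. MLYCD (ENSSSCG00000031450), which removes malonyl-CoA, the inhibitor of CPT1, had 3.42, 19.3 and 32.9 CPM in control, 1.88, 9.26 and 17.0 CPM in D5000, and 1.25, 7.55 and 21.5 CPM in D10000. The diets overlapped for each of these genes, and the lower parts of their ranges rest on few counts, down to 10 for CPT2 and 13 for MLYCD.

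The acyl-CoA dehydrogenases carry out the opening step of each turn and differ in the chain length they accept. ACADVL (ENSSSCG00000017947), for very long chains, had 113, 225 and 332 CPM in control, 66.7, 150.4 and 328 CPM in D5000, and 49.1, 147 and 277 CPM in D10000. ACADS (ENSSSCG00000009916), for short chains, was among the steadiest of the 30 genes, with 85.6, 114 and 151 CPM in control, 55.5, 102 and 166 CPM in D5000, and 58.3, 118 and 156 CPM in D10000. ACADM, for medium chains, spanned 24.5 to 190.3 CPM and ACADL, for long chains, 11.3 to 67.5 CPM. Diets overlapped for all 4, and the lowest ACADM value was that of D10000 replicate 27.

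Electrons from these enzymes pass to the electron transfer flavoprotein, whose subunits are encoded by ETFA and ETFB (ENSSSCG00000003229), and then to its ubiquinone oxidoreductase, encoded by ETFDH. ETFB had 54.0, 93.5 and 150.1 CPM in control, 60.4, 109 and 216 CPM in D5000, and 50.3, 109 and 255 CPM in D10000. ETFA (ENSSSCG00000001862) had 24.5, 76.2 and 132 CPM in control, 30.8, 57.1 and 123 CPM in D5000, and 8.24, 83.3 and 117 CPM in D10000. ETFDH (ENSSSCG00000008877) had 17.8, 80.3 and 110.5 CPM in control, 22.4, 39.8 and 86.7 CPM in D5000, and 23.3, 50.5 and 108 CPM in D10000. The diets overlapped for the 3 genes, and ETFB exceeded ETFA in 16 of 25 libraries and ETFDH in 20. D10000 replicate 27 had the highest ETFB and the lowest ETFA level of all libraries.

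The later steps of the cycle are hydration, a further dehydrogenation and thiolysis. ECHS1 (ENSSSCG00000038086), the short-chain enoyl-CoA hydratase, had 184, 204 and 404 CPM in control, 149, 349 and 497 CPM in D5000, and 177, 237 and 500.0 CPM in D10000. HADH (ENSSSCG00000009150), the matrix 3-hydroxyacyl-CoA dehydrogenase, had 115, 144 and 197 CPM in control, 66.5, 153 and 231 CPM in D5000, and 111, 152 and 729 CPM in D10000. ACAA1 (ENSSSCG00000011250), the peroxisomal thiolase, had 18.4, 47.9 and 109.6 CPM in control, 27.4, 81.7 and 145 CPM in D5000, and 22.2, 59.9 and 1087 CPM in D10000. For all 3 the top value was that of D10000 replicate 27, and the other libraries overlapped between diets. HADHA and HADHB encode the subunits of the mitochondrial trifunctional protein, and HADHA exceeded HADHB in 24 of 25 libraries (medians of 155 and 52.9 CPM). The mitochondrial thiolase genes ACAA2 and ACAT1 spanned 33.8 to 195 CPM and 23.2 to 149.6 CPM.

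For unsaturated acids, DECR1 (ENSSSCG00000006126), the dienoyl-CoA reductase, had 11.9, 21.3 and 42.3 CPM in control, 12.8, 22.8 and 72.3 CPM in D5000, and 8.17, 24.0 and 96.9 CPM in D10000. ECI2 (ENSSSCG00000001000), an enoyl-CoA isomerase, had 8.47, 16.9 and 29.0 CPM in control, 10.7, 20.6 and 48.1 CPM in D5000, and 8.04, 18.9 and 43.5 CPM in D10000. UCP2 (ENSSSCG00000014833), an uncoupling protein of many tissues, was the lowest of the 30 genes, with 1.11, 3.03 and 6.08 CPM in control, 0.434, 2.98 and 5.85 CPM in D5000, and 0.577, 3.09 and 10.1 CPM in D10000. Diets overlapped for these 3 genes as well, and UCP2 rested on 5 to 130 counts per library.

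The comparison of D5000 with control addressed the lower dose. No member passed the test: edgeR's quasi-likelihood test with Benjamini-Hochberg adjustment over 10992 genes called 0 of 30 members (0% of all genes), and DESeq2 and limma-voom also called 0 genes. At an unadjusted p under 0.05, edgeR listed 371 genes, 3.38% of those tested (510 with DESeq2 and 401 with limma-voom), and 1 of the 30 members. The fitted log2 fold change was below 0 for 19 members and above 0 for 11, where 49% and 51% of all genes lay on these sides. Its median was -0.12 over the members and 0.01 over all genes, and the members spanned -1.28 to 0.55. For 16 of 30 members the 95% interval lay within a 2-fold change either way, with a median SE of 0.32.

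The members with the smallest p were spread over the shuttle, electron transfer and uptake. CPT2 had a median of 8.25 CPM in D5000 and 16.0 CPM in control, with a log2 fold change of -0.88 ± 0.37 (SE, 95% interval -1.62 to -0.14, edgeR unadjusted p = 0.022, adjusted p = 0.999). In D5000 replicates 18 and 29 CPT2 reached 17.3 and 22.9 CPM, the other 6 libraries lay at 4.16 to 10.4 CPM, and the control libraries spanned 5.88 to 26.5 CPM, so that the groups overlapped. Without control replicate 16 the estimate was -0.71 (unadjusted p = 0.0668, edgeR). The number of members at an edgeR unadjusted p under 0.05 moved both ways with the library left out. It was 0 without control replicate 16 (1.96% of all genes), 3 without control replicate 3 (3.31%) and 4 without D5000 replicate 24 (3.95%). SLC25A20 stood at -0.54 ± 0.28 (interval -1.12 to 0.04), ETFDH at -0.62 ± 0.33 (-1.28 to 0.05) and MLYCD at -0.79 ± 0.50 (-1.81 to 0.24). FABP3 stood at -1.28 ± 0.68 (-2.68 to 0.12), and without control replicate 16, its highest control library, at -0.38. By role, 4 of 5 genes of the carnitine shuttle (median -0.54), 4 of 4 acyl-CoA dehydrogenases (median -0.30) and 4 of 4 uptake genes (median -0.48) lay below 0, and 3 of 4 synthetases, 4 of 7 genes of the later steps and 2 of 2 auxiliary enzymes lay above 0. The share of reads assigned to genes was 51.8% ± 12.6 in D5000 and 58.4% ± 8.76 in control (SD, 8 libraries each). With it as a covariate the uptake genes lay below 0 in 2 of 4 and the shuttle genes in 5 of 5. The auxiliary enzymes then lay above 0 in 1 of 2 (median 0.047, against 0.24 without the covariate). In that fit 47.3% of all genes lay below 0. The summed level of 11 liver markers had a median of 15145 CPM in D5000 (4007 to 34768 CPM) and 8649 CPM in control (3751 to 25373 CPM). The part of both in these counts was not tested.

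At 10000 IU/kg against control, which addressed the higher dose and shares its 8 control libraries with the comparison above, again 0 of 30 members were called (0% of all genes, edgeR, DESeq2 and limma-voom). Below an unadjusted p of 0.05, edgeR listed 263 genes, 2.39% of those tested (339 with DESeq2 and 217 with limma-voom), and 2 of the 30 members. The log2 fold change was below 0 for 18 members and above 0 for 12, where 42.8% and 57.2% of all genes lay on these sides. Its median was -0.17 over the members and 0.07 over all genes. For 18 of 30 members the 95% interval lay within a 2-fold change either way.

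LPL had a median of 60.0 CPM in D10000 and 72.9 CPM in control, but a fitted log2 fold change of 2.85 ± 1.03 (SE, edgeR unadjusted p = 0.0105, adjusted p = 1.00). ACAA1 had medians of 59.9 CPM in D10000 and 47.9 CPM in control, and a log2 fold change of 1.41 ± 0.56 (unadjusted p = 0.0176, edgeR). Both estimates rest on the adipocyte-marker-rich library: without D10000 replicate 27, LPL stood at -0.37 and ACAA1 at 0.11. ACADVL, at 147 CPM in D10000 and 225 CPM in control (medians), had a log2 fold change of -0.57 ± 0.31 (interval -1.20 to 0.07), and -0.58 without that library. ACSL4 stood at 0.35 ± 0.23 (-0.12 to 0.81) and ETFDH at -0.42 ± 0.32. The uptake gene FABP3 stood at -0.38 ± 0.65, at -1.55 without D10000 replicate 27 (edgeR adjusted p = 0.998) and at 0.52 without control replicate 16. By role, 4 of 4 acyl-CoA dehydrogenases (median -0.33), 4 of 5 shuttle, 3 of 4 uptake and 2 of 3 electron transfer genes lay below 0. Above 0 lay 2 of 2 auxiliary enzymes, 4 of 7 genes of the later steps and 2 of 4 synthetases. These counts depend on D10000 replicate 27. Without it, 3 of 4 dehydrogenases (ACADM at 0.06), 4 of 4 uptake, 3 of 3 electron transfer and 5 of 7 later-step genes lay below 0. The shuttle, auxiliary and synthetase counts stayed the same. In fits leaving out 1 library each, 8 to 13 members lay above 0. The share of all genes on each side in these fits, that without D10000 replicate 27 among them, is not given here.

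**Figure D2:**
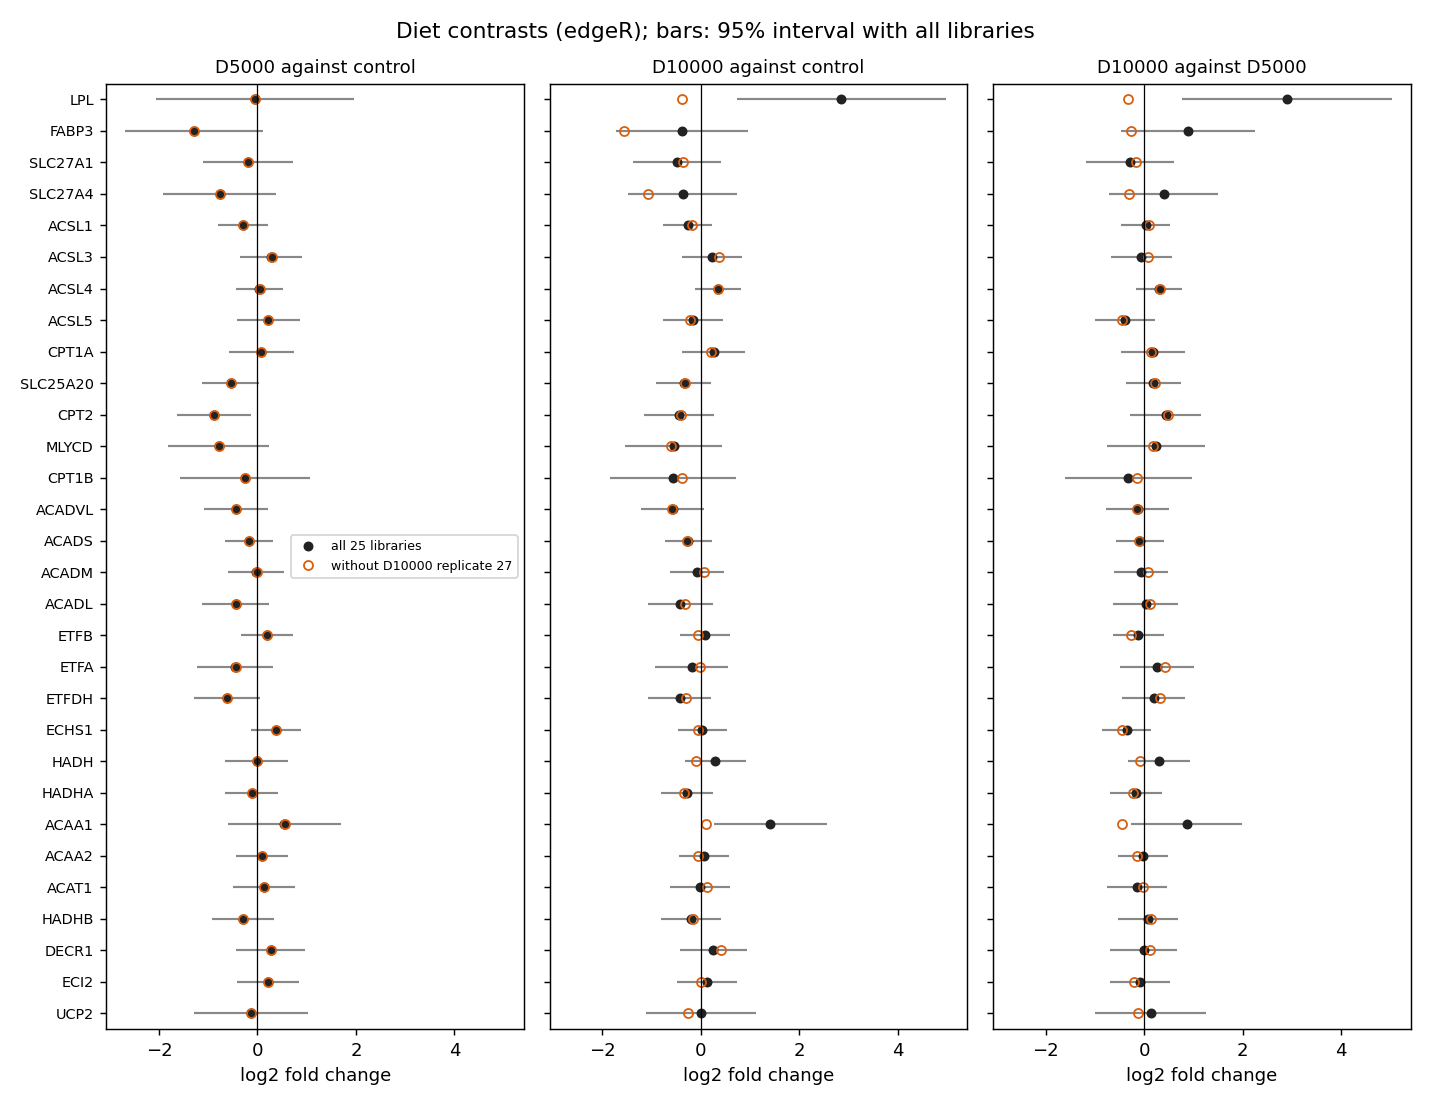
Log2 fold changes of the 30 genes in the 3 diet comparisons, fitted with edgeR over all 25 libraries (black points with 95% intervals) and without D10000 replicate 27 (open circles), with genes down the page by role. LPL in D10000 against control stands at 2.85 with that library and at -0.37 without it, and CPT2 in D5000 against control at -0.88 with and without it.

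Between the doses, D10000 against D5000, edgeR, DESeq2 and limma-voom called 0 of 30 members (0% of all genes). Below an unadjusted p of 0.05, edgeR listed 323 genes, 2.94% of those tested (393 with DESeq2 and 312 with limma-voom), and among the members LPL alone. The log2 fold change was above 0 for 16 members and below 0 for 14, where 54.6% and 45.4% of all genes lay on these sides. Its median was 0.03 over the members and 0.04 over all genes. LPL stood at 2.90 ± 1.03, ACAA1 at 0.87 ± 0.55 and FABP3 at 0.90 ± 0.66, and without D10000 replicate 27 at -0.33, -0.44 and -0.27. ECHS1, with medians of 237 CPM in D10000 and 349 CPM in D5000, stood at -0.35 ± 0.24, and ACSL4 at 0.31 ± 0.23. In none of the 3 comparisons were the CPM ranges of the groups separate for a member (0 of 30 in each), against 0% of all genes for D5000 against control, 0.0091% for D10000 against control and 0% for D10000 against D5000.

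In D10000 replicate 27, 8 of the 30 genes lay above and 4 below the whole range of the other 24 libraries, where 22.6% and 7.59% of all genes tested did so, so that the members' share above the range was near that of all genes. LPL, at 6328 CPM, was 104-fold above the median of the other libraries and 41.4-fold above the next highest. ACAA1 (1087 CPM, 17.6-fold above the median), FABP3 (1531 CPM, 16.7-fold), SLC27A4 (23.2 CPM, 6.91-fold) and HADH (729 CPM, 4.85-fold) were also above the range, as were UCP2, ETFB and ECHS1. Below the range were ETFA (8.24 CPM, 0.106 of the median), ACAT1 (23.2 CPM, 0.314), DECR1 (8.17 CPM, 0.340) and ACADM (24.5 CPM, 0.352). The remaining 18 genes, CPT2, HADHB, ACADVL and ACADS among them, lay within the range of the other libraries. CPT1B, the muscle form, had 8 counts (0.622 CPM) there and CPT1A 51.5 CPM. The part of fat tissue in these values was not tested, since a single library held it.

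**Figure D3:**
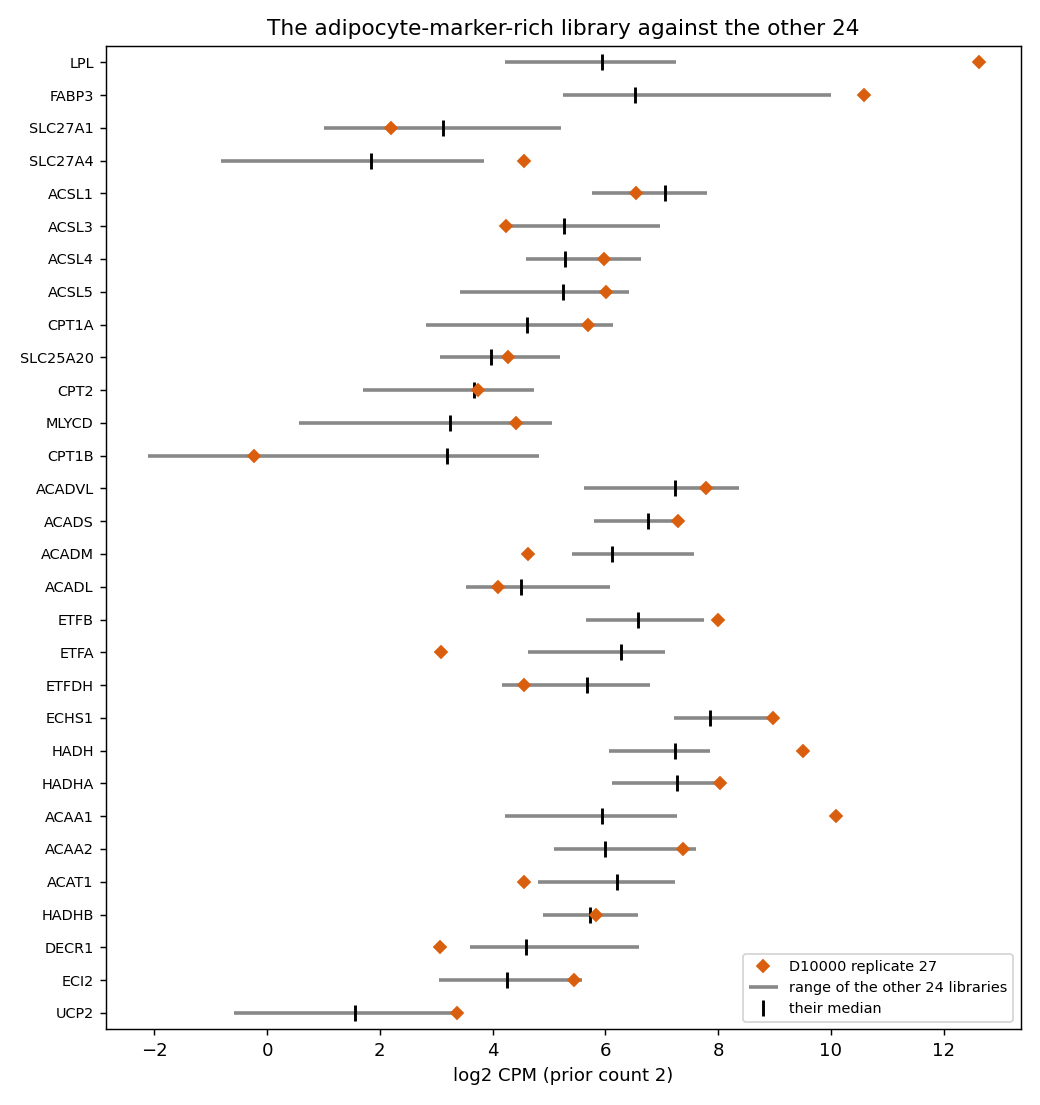
Levels of the 30 genes in D10000 replicate 27 (orange diamonds) beside the range (grey bars) and median (black ticks) of the other 24 libraries, as log2 CPM with a prior count of 2. LPL, ACAA1 and HADH lie well to the right of their bars, FABP3 and SLC27A4 just past the right end, and ETFA to the left.

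Relations across the 25 libraries were measured on log2 CPM centred within diets, with 1e+05 permutations within diets and adjustment over all 10992 genes for each of 5 library measures. Fibre type was read as the difference between the mean of 9 slow-twitch and 10 fast-twitch markers. No member passed (0 of 30, 0% of all genes, and 3 members and 1001 genes at an unadjusted permutation p under 0.05). FABP3 had the closest relation, with Pearson r = 0.64 (permutation p = 0.00033, adjusted p = 0.165) and Spearman rho = 0.50 (permutation p = 0.0138, adjusted p = 0.698). Its r was 0.77 in control, 0.55 in D5000 and 0.66 in D10000, and 0.59 without the 2 libraries farthest from the median. HADHB followed with r = 0.61 (permutation p = 0.00233, adjusted p = 0.328) and rho = 0.46 (permutation p = 0.020, adjusted p = 0.776), and with r = 0.39 without the 2 farthest libraries. D10000 replicate 27, with the highest FABP3 level, had the lowest sum of slow-twitch markers (639 CPM) and of fast-twitch markers (1997 CPM) of all libraries. Its marker difference of -2.14 was nonetheless among the higher ones, and it was not among the 2 farthest libraries left out above. The part of fibre type in its values was not tested. Without D10000 replicate 27, 0 of 30 members passed for this measure, against 0.091% of all genes.

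The share of reads assigned to genes was the measure with the most related members. Of the 30 genes, 11 were related to it, all of them higher where fewer reads were assigned (adjusted permutation p under 0.05), against 27.2% of all genes in that direction, 3.95% in the other and 31.1% in either. They were ACSL1, ACSL3 and ACSL5, CPT1A, ACADM, ETFB, ECHS1, ACAA1, ACAA2, DECR1 and ECI2. ACSL3 had r = -0.82 and rho = -0.80 (adjusted permutation p = 0.000114 and 0.0003), and DECR1 r = -0.80 and rho = -0.77 (adjusted permutation p = 0.000197 and 0.000221). Without the 2 libraries of lowest share r was -0.80 for ACSL3 and -0.78 for DECR1. Libraries with a low share also held more liver transcripts (r = -0.78 between both measures). Of the 30 genes, 8 were higher with the mean of 10 liver markers, a measure added after seeing the data, against 22.2% of all genes in that direction, namely ACSL1, ACSL3, ACSL5, CPT1A, ACADM, ECHS1, ACAA2 and DECR1. The members' share was near the background for the liver markers and somewhat above it for the share of assigned reads, and neither difference was tested. DECR1 had r = 0.88 and rho = 0.89 (adjusted permutation p = 0.000175 and 0.000163), with r = 0.97 in control, 0.87 in D5000 and 0.87 in D10000. In the plot of levels against markers, DECR1 ran from 8.17 CPM to 96.9 CPM, with its top value in D10000 replicate 7, which also had the most liver transcripts (39427 CPM over 11 markers, ALB at 18158 CPM). The part of liver RNA in these members' levels was not tested.

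The scaling changed these relations. With library sizes scaled by TMM (trimmed mean of M-values) in place of gene totals, 5 members were related to the share, with ACSL3, CPT1A and DECR1 negative and FABP3 and HADHB positive (14.1% of all genes negative, 17.6% positive and 31.6% in either direction), and the median r over the members was 0.27 in place of -0.30. For the liver markers 5 members passed the threshold under TMM, with ACSL3, ACSL5, ACADM and DECR1 positive (9.72% of all genes) and FABP3 negative (5.27% of all genes). Without the 2 libraries farthest from the median, r was 0.28 for ACADM and -0.37 for FABP3. ACSL3 and DECR1 passed under both scalings and kept their sign for both measures, r being -0.60 and -0.64 with the share under TMM.

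Vessel and fat content gave fewer relations. SLC27A4 was related to the mean of 10 endothelial markers (r = 0.71, adjusted permutation p = 0.033, rho = 0.49, adjusted permutation p = 0.144), the only one of 30 members against 3.18% of all genes in that direction and 3.3% in either. Passing the threshold depended on D10000 replicate 27, the library with most endothelial transcripts (863 CPM, next highest 273 CPM). For SLC27A4, r was 0.41 without the 2 farthest libraries and 0.55 without D10000 replicate 27 (adjusted permutation p = 0.141). Under TMM scaling 5 members passed by r for the endothelial markers (8.66% of all genes). They were LPL, FABP3, HADH and SLC27A4 with a positive r (4.9% of all genes) and ACSL3 with a negative one (3.76% of all genes). Of these 5, 1 also passed by rho. D10000 replicate 27 held the highest level of LPL, FABP3, HADH and SLC27A4, and the TMM relations were not repeated without it. With gene totals, 0 of 30 members passed without that library, against 0.4% of all genes. For the adipocyte markers 0 of 30 members passed (0% of all genes, with 4 members and 1304 genes at an unadjusted permutation p under 0.05). As D10000 replicate 27 forms a cluster of its own in this measure, no pooled r is given, and among the other 24 libraries 0 members and 118 genes had an unadjusted permutation p under 0.05.

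Partners in the pathway were compared directly in 5 pairs with values, with adjustment over the 5. ETFA and ETFDH, which act in succession, varied together over the libraries (r = 0.76, rho = 0.79, both with the smallest p that the permutations can give, 1e-05, adjusted p = 5e-05), with r = 0.82 in control, 0.85 in D5000 and 0.77 in D10000. Without D10000 replicate 27, r was 0.46 in D10000 and 0.77 over the 24 libraries (adjusted permutation p = 0.00025). CPT1B and CPT2, on the outer and inner side of the shuttle, had r = 0.64 (permutation p = 0.00134, adjusted p = 0.00335) and rho = 0.51 (adjusted p = 0.0146, permutation). D10000 replicate 2 had the lowest level of both, at 0 and 10 counts. Without the 3 libraries of low assigned share and D10000 replicate 27, r was 0.58 (adjusted permutation p = 0.0283) and within D10000 0.19, against 0.65 with all libraries. Under TMM scaling r was 0.64, but 0.24 within control and 0.38 without the 2 farthest libraries. HADHA and HADHB, subunits of a single complex, had r = 0.13 and rho = 0.26 (adjusted permutation p = 0.703 and 0.275). ETFA and ETFB, also subunits of a complex, had r = -0.27 (adjusted permutation p = 0.367), which was 0.056 without D10000 replicate 27 and -0.50 under TMM scaling (adjusted permutation p = 0.0342). CPT1B and SLC25A20 had r = 0.04 (adjusted permutation p = 0.874), with r = 0.80 in D5000 and -0.52 in D10000, where D10000 replicate 2 held the highest SLC25A20 and 0 counts of CPT1B. Over all 435 pairs of members, r had a median of 0.28 and was above 0 in 364, given as a description, since libraries share depth and tissue content.

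**Figure D4:**
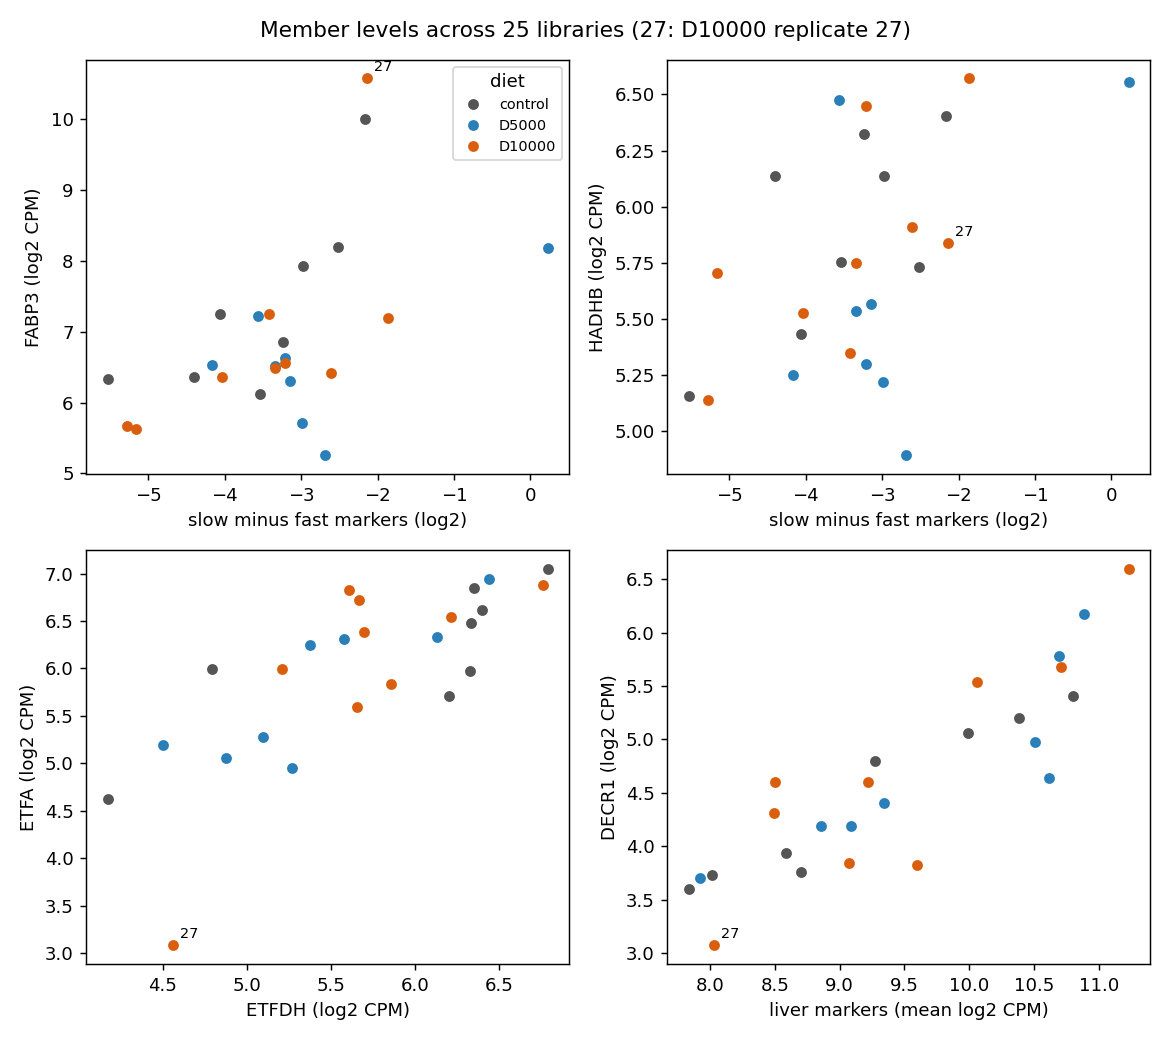
Levels of single genes across the 25 libraries, coloured by diet: FABP3 and HADHB against the slow minus fast marker difference (log2), ETFA against ETFDH, and DECR1 against the mean of the liver markers, all as log2 CPM with a prior count of 2. ETFA follows ETFDH (r = 0.76) and DECR1 follows the liver markers (r = 0.88), while D10000 replicate 27 lies low for ETFA.

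Of 48 further genes of fatty acid handling, 41 were matched, 37 had a count in at least 13 libraries and 36 were tested, and 0 of the 36 were called in any comparison by edgeR (0% of all genes). Their median log2 fold change was 0.10 for D5000 against control, 0.14 for D10000 against control and -0.05 for D10000 against D5000. In D5000 against control, PNPLA2, the adipose triglyceride lipase, had medians of 66.0 CPM in D5000 and 136 CPM in control (-1.17 ± 0.68), and ANGPTL4, an inhibitor of lipoprotein lipase, stood at -0.79 ± 0.45. In D10000 against control, OXCT1, the ketone body transferase, stood at 0.89 ± 0.45, DBI, the acyl-CoA-binding protein, at 0.74 ± 0.38 and MGLL, the monoglyceride lipase, at 1.29 ± 0.69, and without D10000 replicate 27 at -0.08, 0.11 and -0.54. In D10000 against D5000, PNPLA2 stood at 2.04 ± 0.68, MGLL at 1.57 ± 0.69 and ANGPTL4 at 0.88 ± 0.44, and without that library at 0.70, -0.27 and 0.16.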

How the data were processed

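The authors deposited raw counts, as whole numbers for Ensembl pig gene identifiers in 1 file per pig, with no normalization seen in the values. RNA came from the A&A Biotechnology Total RNA Mini kit and libraries from the Lexogen QuantSeq 3' FWD kit, per the labels' protocols. FastQC is named in the submitters' processing notes. The aligner, counting program, genome build and annotation are not given in the sources used here, so no coordinates or sequences are printed. Each file ends with 5 summary lines for reads not assigned to a gene, which stayed out of library sizes and tests: 16.3% to 38.1% of reads lay outside genes, 12.5% to 38.7% mapped to several places and 0.299% to 0.608% were ambiguous. Of 25880 gene identifiers, 1 was absent from the file of D10000 replicate 27, and 25879 were analysed.

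Counts were filtered with filterByExpr (minimum count 10, minimum total 15), scaled by TMM and fitted over all 25 libraries with diet as the only term by edgeR 4.0.16 (glmQLFit and glmQLFTest, robust) in R 4.3.3, with a threshold of 0.05 on Benjamini-Hochberg adjusted p over 10992 genes. The common BCV was 0.669. Alternatives were RLE size factors, no filter, DESeq2 1.42.0, voom of limma 3.58.1, a covariate for the assigned share and each library left out. CPM used the gene total of a library, and log2 CPM a prior count of 2 (5 as an alternative). Relations used Python 3.11.15 and numpy 2.4.6, with two-sided permutations of the values within diets for r and for rho. Their adjustment ran over all tested genes within a measure, in place of the planned adjustment over members and measures. The liver measure, and a repeat without D10000 replicate 27 and the 3 libraries of low assigned share, were added after seeing the data. Of 8 planned pairs, 5 had values. The fits and the relations were checked on simulated data. The simulations did not model fat or liver content or the share of assigned reads, so the check does not cover them.

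Members, marker lists, the 48 further genes and the rules were chosen with earlier results of these data known. Levels by diet are given for the 2 most abundant members of each role and the 5 members of smallest unadjusted p in a comparison, and values for the 3 further genes of smallest p. The result of 1 further gene is not reported here. The 10 immune markers, a list with no relation tested, summed to 211 to 1109 CPM in control, 231 to 1601 CPM in D5000 and 251 to 1224 CPM in D10000. The labels name 1 pig per library, so p-values measure the spread between pigs. Counting floors (3 counts) cover counting error only.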

Additional observations from a re-analysis of the deposited data

Results flagged for a closer look

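The level of each of the 30 genes was examined within each diet for a library far from the rest, by the gap of the highest or lowest library to its neighbour relative to the range of the diet on the log2 scale. Of 90 groups examined, 9 held such a library, where the nominal rate of the rule is about 1 in 20 groups, or 4.5 of 90. The rule was not run over all genes, so the 9 cannot be set against their share. In 7 of the 9 it was D10000 replicate 27, the library with 19871 CPM of adipocyte markers. That library lay above the range of the other libraries for 22.6% of all genes tested and below it for 7.59%. Its LPL level was 6328 CPM (next 109 CPM), its FABP3 level 1531 CPM (next 152 CPM), its SLC27A4 level 23.2 CPM (next 5.03 CPM), its HADH level 729 CPM (next 181 CPM) and its ACAA1 level 1087 CPM (next 155 CPM). It was lowest of its diet for ETFA at 8.24 CPM (next 48.0 CPM) and for ACAT1 at 23.2 CPM (next 57.8 CPM). The part of its adipocyte transcripts in these values was not tested.

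Outside that library, LPL was low in control replicate 9 at 23.8 CPM, with 55.6 CPM as the next lowest control, and ACADL, the long-chain acyl-CoA dehydrogenase gene, was high in D10000 replicate 13 at 67.5 CPM, with 29.3 CPM as the next highest.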

How the results depend on the processing

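No paired analysis was possible because animal numbers are not shared between diets and litters are not in the labels. Of 10992 genes, edgeR called 0 in each comparison, and 0 were called under any alternative, including the 25 fits that left out a library each. In those fits the members' median log2 fold change was -0.20 to -0.03 for D5000 against control, -0.21 to -0.03 for D10000 against control and -0.10 to 0.15 for D10000 against D5000. For the genes of smallest p in each comparison, 24 of 744 fold changes under alternatives changed sign, all of them involving D10000. FABP3 in D10000 against control, outside that set, also changed sign, to 0.14 with the covariate and 0.52 without control replicate 16. In D10000 against control, DESeq2, the fit without D10000 replicate 27 and the fit without that library and the 3 of low assigned share gave -0.34, -0.37 and -0.11 for LPL, -0.063, -0.081 and -0.035 for OXCT1, and -0.51, -0.54 and -0.28 for MGLL (-0.087 with limma-voom), and the last fit gave -0.31 for ACAA1 and -0.25 for DBI. In D10000 against D5000 the same 3 gave -0.29, -0.33 and -0.22 for LPL, -0.42, -0.44 and -0.83 for ACAA1 (-0.15 with limma-voom) and -0.23, -0.27 and -0.12 for MGLL, and the fits without libraries gave -0.27 and -0.14 for FABP3. The highest values with a single library left out were, in D10000 against control, 3.09 for LPL, 1.61 for ACAA1, 1.08 for OXCT1, 0.90 for DBI and 1.52 for MGLL, and, in D10000 against D5000, 3.13 for LPL, 1.06 for ACAA1, 1.26 for FABP3 and 1.79 for MGLL.

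Under TMM scaling the related members numbered 5 for the share of assigned reads (11 with gene totals), 5 for the liver markers (8) and 5 for the endothelial markers (1). Of all genes, 31.6% passed for the share under TMM (31.1% with gene totals), 15% for the liver markers (22.9%) and 8.66% for the endothelial markers (3.3%). For the endothelial markers the related members were 2 with a prior count of 5 (3.71% of all genes) and 0 without D10000 replicate 27 (0.4% of all genes). Without it and the 3 libraries they were 0 (0% of all genes). ETFA and ETFB had r = -0.50 under TMM (adjusted permutation p = 0.0342), 0.056 without D10000 replicate 27 and 0.13 without all 4 libraries, and CPT1B and SLC25A20 had r = 0.54 without the 4 (adjusted permutation p = 0.0284) and 0.066 without D10000 replicate 27 alone. The cause of these shifts was not tested. With limma-voom 54.2% of all genes lay below 0 in D10000 against control, where edgeR had 42.8%. Without the filter on low counts 16486 genes were tested, with 0 called and 1618, 1537 and 1716 at an unadjusted p under 0.05 in D5000 against control, D10000 against control and D10000 against D5000 (371, 263 and 323 with the filter). At this spread the 95% interval lay within a 2-fold change for 16, 18 and 20 of 30 members in these comparisons.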
